A study of Mus musculus with 15 samples.

Results

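Sorted tumor cells carrying sh-B7-H3 (1), a short hairpin RNA (shRNA) against B7-H3, were compared with sorted tumor cells carrying the non-targeting control sh-NC. The comparison takes 6 of the study's 15 RNA-seq libraries, 3 per group, chosen by their labels, and every gene of the expression table. The other 9 libraries, used only for reference, are 3 of sorted cells with a separate shRNA, sh-B7-H3 (2), 3 of bulk sh-NC tumors and 3 of bulk sh-B7-H3 (1) tumors. All groups derive from 105K, a mouse line without Tsc2 that was established from the renal tumor of a Tsc2+/− animal, grown under the skin of 6-week-old male wild-type C57BL/6J mice, so that the controls lack Tsc2 as well. The shRNA lines were puromycin-selected pools and not clones, and no agent was given. Sorted cells are those left unlabeled when non-tumor cells were depleted magnetically from dissociated tumors, while bulk tumors also hold the cells of the host. The sources name 3 biologic samples per group without saying how many animals each holds. Genes are written in capitals, as in the table.

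B7-H3, encoded by CD276, is a surface protein of the B7 family of immune checkpoint molecules. TSC2 restrains mTORC1, a kinase complex that drives growth and metabolism. Interferon-γ (IFN-γ) is made mainly by activated T cells and natural killer cells, and binds a receptor whose Janus kinases activate STAT factors. These bind a short DNA element named GAS, and induce IRF1 and further factors that bind the interferon-stimulated response element (ISRE). Interferon-responsive cells then express guanylate-binding proteins, the immunoproteasome and MHC class I, and, through the coactivator CIITA, MHC class II, which most epithelial cells lack at rest.

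The start regions of 7 genes that were higher in sh-B7-H3 (1) cells are shown because they hold the elements through which interferon and CIITA signals are known to act. They are the 120 bases before the RefSeq transcription start (GRCm38.p6, the assembly called mm10), 5′ to 3′ on the gene's strand, with matches in capitals. Searched on both strands were TTCNNNGAA for GAS, GAAANNGAAA for the ISRE core and CTGATTGG for the Y box, an element of MHC class II promoters bound by NF-Y. IRF1, at chr11:53769894-53770013, plus strand, held a GAS match 90 bases before the start, counted to the first base of the match. GBP2, at chr3:142620543-142620662, plus strand, held an ISRE match at 59 bases. IGTP, at chr11:58199436-58199555, plus strand, held GAS at 45 and ISRE at 34 bases, and TGTP1, at chr11:48992247-48992366, minus strand, held them at 88 and 77 bases. CTSS, at chr3:95526666-95526785, plus strand, held ISRE at 21 bases. H2-AA, at chr17:34287824-34287943, minus strand, and H2-EB1, at chr17:34305747-34305866, plus strand, held the Y box at 51 and 62 bases.
IRF1: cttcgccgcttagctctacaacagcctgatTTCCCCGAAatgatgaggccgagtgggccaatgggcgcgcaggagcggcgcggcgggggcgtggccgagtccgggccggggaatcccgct
GBP2: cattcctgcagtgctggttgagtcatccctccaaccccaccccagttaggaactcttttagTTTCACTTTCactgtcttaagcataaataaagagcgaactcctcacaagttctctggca
IGTP: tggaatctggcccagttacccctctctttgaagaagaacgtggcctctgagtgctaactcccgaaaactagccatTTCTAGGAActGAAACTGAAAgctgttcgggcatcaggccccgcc
TGTP1: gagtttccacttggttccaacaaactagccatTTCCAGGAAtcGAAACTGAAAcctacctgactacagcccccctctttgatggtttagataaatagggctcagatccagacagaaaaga
CTSS: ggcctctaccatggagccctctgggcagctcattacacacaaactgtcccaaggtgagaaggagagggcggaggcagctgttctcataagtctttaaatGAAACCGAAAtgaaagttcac
H2-AA: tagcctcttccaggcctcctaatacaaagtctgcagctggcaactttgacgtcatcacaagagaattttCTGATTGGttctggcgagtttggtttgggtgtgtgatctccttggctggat
H2-EB1: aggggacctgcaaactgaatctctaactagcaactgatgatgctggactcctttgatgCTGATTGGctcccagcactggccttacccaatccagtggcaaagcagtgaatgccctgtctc
A further annotated start of IRF1 held no match of the 3 elements in the same window. Within 250 bases before the start, ISRE matches occurred in 3.46% of 27025 genes with a promoter sequence and GAS matches in 8.13%. For the 8772 tested genes with a sequence the shares were 3.35% and 7.18%. Among genes higher in sh-B7-H3 (1) cells, 58 of 734 held ISRE (7.90%) and 63 held GAS (8.58%), against 8 (2.17%) and 30 (8.13%) of 369 lower genes. Of 10 guanylate-binding protein and immunity-related GTPase genes with a sequence, 9 held ISRE, IFI47 being the exception, and 6 held GAS. Y box matches occurred in 4.43% of all genes, in 6.42% of the tested genes, in 4.50% of the higher and in 5.42% of the lower genes. They occurred in 2 of 14 tested MHC class II genes (H2-AA and H2-EB1), in 4 of 10 class I heavy chains and in 3 of 12 class I loading genes. In the epithelial lists CLDN7 held ISRE and GAS, NECTIN4 held ISRE, and RAB25 and CLDN12 held GAS. A match is a description of the sequence and does not show that a factor is bound there.

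The values are FPKM, fragments scaled to transcript length and sequencing depth, divided here by a scaling factor per library ("scaled FPKM"). In each sentence of values, the 3 numbers of a group belong to replicates 1, 2 and 3. The summed FPKM was 435533, 751234 and 565952 in sh-NC cells and 558060, 504929 and 513523 in sh-B7-H3 (1) cells. A small RNA entry, MIR6236, held 51.6% of the sum in sh-NC replicate 2 and 6.01% to 9.43% in the other 5 libraries, which is why the libraries were rescaled by factors between 0.791 and 1.16. Between 10827 and 11133 genes had at least 1 scaled FPKM. Replicates correlated on the log2 scale with Pearson's r of 0.952 to 0.974 in sh-NC cells and 0.976 to 0.982 in sh-B7-H3 (1) cells across 11163 genes, which are not independent. Read numbers are not in the tables, so the counting error of a low value is unknown.

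The target was measured first. Fold changes here and below are differences of mean log2(scaled FPKM + 1), a scale that understates the change of genes with low values, and p-values measure the spread between samples whose animals of origin are not stated. CD276, the gene of B7-H3, had 34, 20.0 and 17.3 scaled FPKM in sh-NC cells and 7.29, 14 and 11.5 in sh-B7-H3 (1) cells. All 3 sh-B7-H3 (1) libraries lay below all sh-NC libraries (log2 fold change -1.04, standard error 0.29), but the gene did not pass the threshold (limma adjusted p = 0.0547, and p = 0.1 in a two-sided exact permutation test, which goes no lower with 3 libraries per group). The call depends on the setting, with adjusted p from 0.0053 when all 15 libraries are fitted to 0.194 without sh-B7-H3 (1) replicate 1. Bulk tumors of the same shRNA differed by -0.07 on the log2 scale. Epithelial markers were present in all 6 libraries, with EPCAM at 17.2 to 168 scaled FPKM, KRT8 at 276 to 378 and the renal factor PAX8 at 18.3 to 34.7. TSC2 RNA was listed at 1.66 to 4.14 scaled FPKM in this Tsc2-deficient line, and the groups overlapped.

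Of 11163 genes tested, 1497 changed (limma, Benjamini-Hochberg adjusted p below 0.05), which is 13.4%. Of these, 1008 were higher in sh-B7-H3 (1) cells, 9.03% of all tested, and 489 were lower, 4.38%. The rises were the larger changes, since 588 genes rose and 128 fell by more than 1 on the log2 scale, and 182 rose and 9 fell by more than 2. In 3474 genes, 31.1%, the groups did not overlap. Among the 10854 genes with at least 1 scaled FPKM in a library of each group, 7.20% rose and 4.07% fell, with a median log2 fold change of -0.0048. Counts of gene list members are over such genes, because a member that passes the filter through 1 group alone has to differ. The lists were chosen with earlier results of these data known, so their counts are descriptions and not tests. The count of changed genes was lower without sh-NC replicate 2 (980) and without sh-B7-H3 (1) replicates 1 (722), 2 (800) or 3 (751), each with 1 library fewer. The split of 67.3% higher also moved with the scaling, to 84.2% on FPKM as deposited, where the median of all genes shifted to 0.174, and to 55.3% after quantile normalization.

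**Figure D1:**
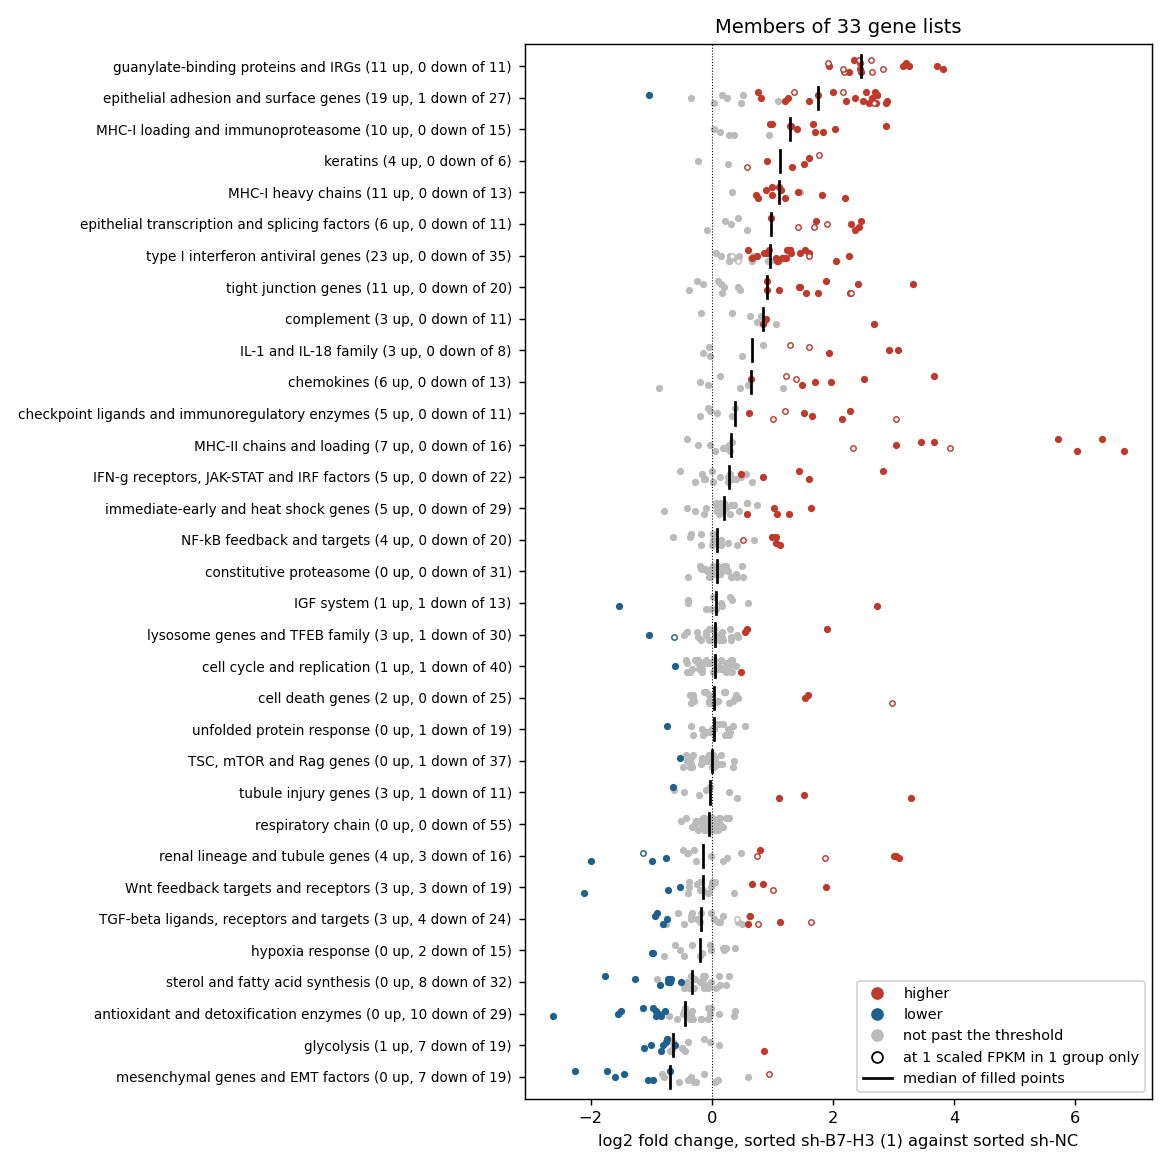
Log2 fold changes between sorted sh-B7-H3 (1) and sorted sh-NC cells (x axis) for the tested members of 33 gene lists (rows), with 1 point per gene, red for higher, blue for lower and grey for not past the threshold. Open points are genes with 1 scaled FPKM in 1 group only, vertical bars are medians of the filled points, and the counts in brackets are over filled points. Guanylate-binding proteins lie highest as a group (median 2.46), single MHC class II genes reach furthest right (CD74 at 6.80), the constitutive proteasome and the respiratory chain stay around 0, and glycolysis, mesenchymal and antioxidant genes lie to the left.

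The 4 largest rises of protein-coding genes were those of MHC class II genes. CD74, the invariant chain that accompanies class II molecules to the endosome, had 22.3, 8.30 and 7.96 scaled FPKM in sh-NC cells and 1988, 1114 and 1223 in sh-B7-H3 (1) cells (log2 fold change 6.80, standard error 0.39, limma adjusted p = 6.8e-05). H2-AA, the alpha chain of the I-A molecule, had 3.91, 1.81 and 2.08 scaled FPKM in sh-NC cells and 542, 216 and 239.5 in sh-B7-H3 (1) cells (log2 fold change 6.45, standard error 0.36, limma adjusted p = 6.6e-05), and its partner H2-AB1 had 5.08, 1.65 and 2.11 scaled FPKM in sh-NC cells and 388, 196 and 181 in sh-B7-H3 (1) cells (log2 fold change 6.03, standard error 0.38, limma adjusted p = 7.3e-05). The beta chain of I-E, H2-EB1, had 2.27, 0.456 and 0.674 scaled FPKM in sh-NC cells and 172, 75.5 and 86.4 in sh-B7-H3 (1) cells (log2 fold change 5.71, standard error 0.38, limma adjusted p = 7.9e-05). In these 4 genes every sh-B7-H3 (1) library was above every sh-NC library by more than an order of magnitude, and replicate 1 was the highest of each group. The peptide editors H2-DMA (3.93), H2-DMB1 (3.04) and H2-DMB2 (3.45) also rose. CIITA, the coactivator of class II transcription, went from 0.127, 0.0672 and 0.0221 to 6.88, 3.38 and 3.47 scaled FPKM (log2 fold change 2.32). CTSS, the protease that trims the invariant chain, had 5.10, 6.13 and 5.69 scaled FPKM in sh-NC cells and 117, 74.9 and 66.9 in sh-B7-H3 (1) cells (log2 fold change 3.68, standard error 0.21, limma adjusted p = 6.8e-05).

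Other parts of the class II pathway did not pass the threshold. They are the promoter-bound factors RFX5 (0.31), RFXANK (0.18), RFXAP, NFYA (0.28), NFYB (0.33) and NFYC (-0.40), and the endosomal enzymes CTSL (-0.23), LGMN (0.24) and IFI30. In all, 18 of 21 members were tested, 2 of them (CIITA and H2-DMA) at 1 scaled FPKM in sh-B7-H3 (1) cells only. Of the other 16, 7 rose with none lower (median log2 fold change 0.32), against 7.20% higher among all such genes. H2-EB2, H2-OA and H2-OB were below the filter.

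**Figure D2:**
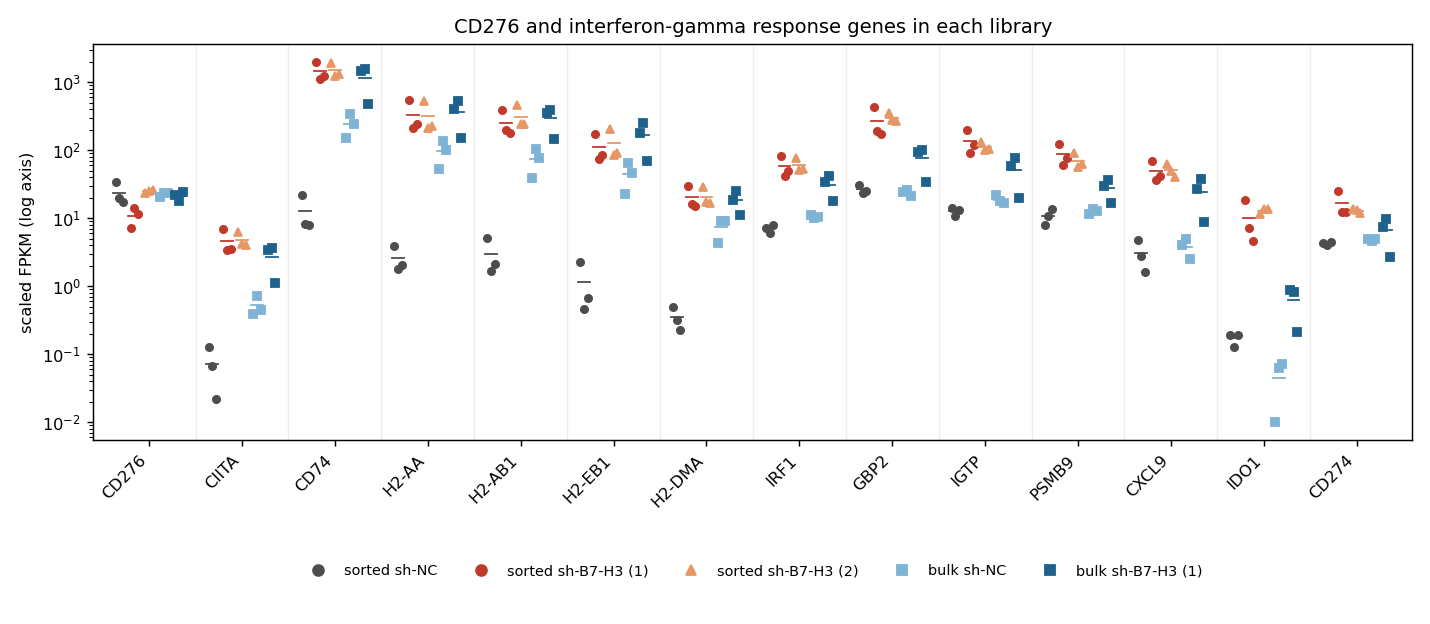
Scaled FPKM on a log axis of CD276 and 13 genes of the interferon-γ response in each of the 15 libraries, with 1 point per library, colors and shapes for the 5 groups and short lines for group means, and values below 0.01 drawn at 0.01. Sorted sh-B7-H3 (1) libraries lie above all sorted sh-NC libraries in the 13 response genes, with the widest gaps for CIITA, the MHC class II genes and IDO1, and below them for CD276.

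Leukocytes express MHC class II, so their markers are given here beside it. The 10 leukocyte markers summed to 3.0 to 5.90 scaled FPKM in sh-NC cells and 5.63 to 8.19 in sh-B7-H3 (1) cells, and PTPRC, which encodes CD45, stayed under 1 in all 6 libraries. The 17 T and cytotoxic cell markers summed to 0.572 to 0.981 and 1.49 to 1.88, with 16 of the 17 under 1 in all 6 libraries and 3 at 0, IFNG among these. The 19 macrophage and dendritic cell markers summed to 64.4 to 69.5 in sh-NC cells and 146 to 167 in sh-B7-H3 (1) cells, and 12 of the 19, including ADGRE1, ITGAX and FLT3, were under 1 in all 6. Of the 7 that were tested, CSF1R (1.67), CD14 (1.53) and CD68 (1.08) rose, while the complement genes C1QA (0.31), C1QB and C1QC (0.35) and LYZ2 did not pass. CD14 had 18.7, 26.7 and 33 scaled FPKM in sh-NC cells and 86.7, 68.8 and 72.3 in sh-B7-H3 (1) cells, and all sh-B7-H3 (1) libraries were above all sh-NC libraries.
Bulk sh-NC tumors held 943 to 1598 scaled FPKM of the macrophage and dendritic cell markers and 152, 336 and 246 of CD74. Sorted sh-B7-H3 (1) cells, with 146 to 167 of those markers, held 1988, 1114 and 1223 of CD74. Bulk sh-B7-H3 (1) tumors held 986 to 1648 of the markers and 1470, 1552 and 471 of CD74, which overlaps the sorted sh-B7-H3 (1) cells.

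**Figure D3:**
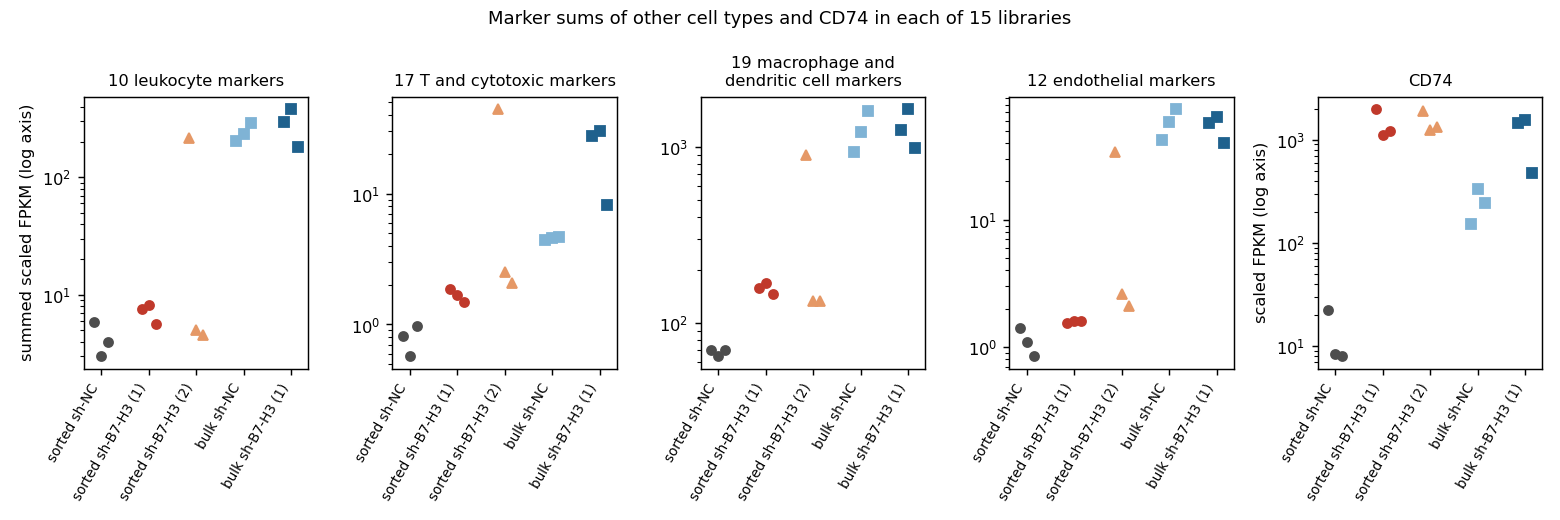
Summed scaled FPKM of 4 marker lists and the level of CD74 (log axes) in each library of the 5 groups, with 1 point per library. Sorted sh-B7-H3 (1) cells have more CD74 than any bulk sh-NC tumor and lower marker sums. Their CD74 overlaps that of bulk sh-B7-H3 (1) tumors. Sorted sh-B7-H3 (2) replicate 1 lies far above the other sorted libraries in every marker panel. Its T and cytotoxic sum (44.2) exceeds that of every bulk tumor (at most 30.2), and its endothelial sum (34.3) is below all of theirs (at least 40.3).

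Among the interferon signaling genes, induced factors rose, while most receptors and kinases did not pass the test. IRF1, a transcription factor early in the IFN-γ response, had 7.09, 6.11 and 8.04 scaled FPKM in sh-NC cells and 83.6, 41.8 and 50.1 in sh-B7-H3 (1) cells (log2 fold change 2.83, standard error 0.25, limma adjusted p = 0.00022). SOCS1, which inhibits Janus kinases, had 1.27, 1.03 and 0.946 scaled FPKM in sh-NC cells and 6.54, 3.18 and 4.72 in sh-B7-H3 (1) cells (log2 fold change 1.44, standard error 0.21, limma adjusted p = 0.00256). IRF7, a factor of the type I interferon loop, had 26.7, 28 and 24 scaled FPKM in sh-NC cells and 65.2, 41.2 and 40.9 in sh-B7-H3 (1) cells (log2 fold change 0.85, standard error 0.20, limma adjusted p = 0.0246). None of these 3 genes overlapped between the groups, and sh-B7-H3 (1) replicate 1 was the highest library for each. IFNGR2, a receptor chain for IFN-γ, rose slightly (log2 fold change 0.48, standard error 0.12, limma adjusted p = 0.0332). IFNGR1 (0.27), JAK1 (-0.52), JAK2 (0.27), IRF2 (0.66) and IRF9 (0.56) did not pass. Over the list, 5 of 22 tested members rose, against 7.20% of all genes at 1 scaled FPKM in both groups. None fell, and the list median was 0.29. The count was 3 without sh-NC replicates 2 or 3 and without sh-B7-H3 (1) replicates 1 or 3. The calls of IRF7 and IFNGR2 were lost in 5 or more of 10 alternatives (the other scalings, a pseudocount of 0.1, a replicate block and the removal of each library).

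Guanylate-binding protein and immunity-related GTPase genes rose together. These GTPases attack vacuoles of intracellular microbes and are classical IFN-γ targets. Of the 20 genes listed, 18 were tested, 7 of them at 1 scaled FPKM in sh-B7-H3 (1) cells only, and the other 11 were all higher, against 7.20% of all such genes. Their median log2 fold change was 2.46, and single values over the 18 ran from 1.93 for GBP7 to 3.81 for TGTP1. GBP2 had 30.9, 23.6 and 25.2 scaled FPKM in sh-NC cells and 435, 192 and 174 in sh-B7-H3 (1) cells (log2 fold change 3.16, standard error 0.33, limma adjusted p = 0.00046). IGTP had 14.3, 10.9 and 13.3 scaled FPKM in sh-NC cells and 199, 91.9 and 120.5 in sh-B7-H3 (1) cells (log2 fold change 3.25, standard error 0.27, limma adjusted p = 0.00017), and IIGP1 had 40.2, 30.6 and 30.9 scaled FPKM in sh-NC cells and 505, 235 and 269 in sh-B7-H3 (1) cells (log2 fold change 3.20, standard error 0.28, limma adjusted p = 0.00023). TGTP1 had 18.6, 15.1 and 18.9 scaled FPKM in sh-NC cells and 448, 178 and 214 in sh-B7-H3 (1) cells (log2 fold change 3.81, standard error 0.32, limma adjusted p = 0.00018). In all 4, sh-B7-H3 (1) replicate 1 was well above replicates 2 and 3, and the lowest sh-B7-H3 (1) library was still far above the highest sh-NC library. TGTP1 and TGTP2 (3.72) are near-identical copies, so that their reads may have been shared between them.

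Antigen presentation through MHC class I rose from a higher base and by less. H2-K1, a classical heavy chain, had 945, 841 and 760.1 scaled FPKM in sh-NC cells and 1752, 1581 and 1715 in sh-B7-H3 (1) cells (log2 fold change 0.99, standard error 0.20, limma adjusted p = 0.0128). H2-D1, the other one, had 727, 743 and 717 scaled FPKM in sh-NC cells and 1295, 1121 and 1303 in sh-B7-H3 (1) cells (log2 fold change 0.76, standard error 0.18, limma adjusted p = 0.0291). Both genes were higher in every sh-B7-H3 (1) library than in any sh-NC library. Of 13 tested heavy chains 11 rose, with a median of 1.10, against 7.20% of all genes at 1 scaled FPKM in both groups. The largest values were those of the nonclassical H2-Q2 (2.20), H2-T23 (1.82), H2-M3 (1.42) and H2-T22 (1.20). Without sh-NC replicate 2 the count was 6, and without sh-B7-H3 (1) replicates 1 or 3 it was 5. H2 genes have close paralogs that can share reads, and the deposited values of H2-Q6 and H2-T9, which did not pass, ranged from near 0 to above 10 scaled FPKM among the 6 libraries. B2M, the shared light chain, had 5931, 5200 and 3762 scaled FPKM in sh-NC cells and 6165, 6696 and 5044 in sh-B7-H3 (1) cells, and its groups overlapped (log2 fold change 0.28, standard error 0.31, limma adjusted p = 0.663). The calls of H2-K1 and H2-D1 were lost in 5 or more of the 10 alternatives.

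The machinery that makes and loads class I peptides rose with the heavy chains. PSMB9, a catalytic subunit of the immunoproteasome, had 8.07, 10.8 and 13.5 scaled FPKM in sh-NC cells and 124, 61.5 and 77 in sh-B7-H3 (1) cells (log2 fold change 2.87, standard error 0.27, limma adjusted p = 0.00031). The other inducible subunits PSMB8 (2.03) and PSMB10 (1.83) rose, as did the peptide transporters TAP1 (1.70) and TAP2 (1.41), the loading factors TAPBP (1.29) and TAPBPL (1.67), the trimming peptidase ERAP1 (1.30), the proteasome activator PSME1 (0.96) and NLRC5 (1.00), the coactivator of class I transcription. PSME2 (0.95, limma adjusted p = 0.064) did not pass. This makes 10 of 15 members higher, against 7.20% of all genes at 1 scaled FPKM in both groups, and none lower, with a median of 1.29. None of the 31 genes of the constitutive proteasome changed (median 0.08), or 1 without sh-NC replicate 1. The call of PSME1 was lost in 5 or more of the 10 alternatives.

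Most type I interferon antiviral genes rose as well. Of 35 members, 23 rose, against 7.20% of all genes at 1 scaled FPKM in both groups, and none fell, with a median of 0.97. ZBP1, a sensor of nucleic acids in the Z form, had 20.7, 22.2 and 24.2 scaled FPKM in sh-NC cells and 169, 86.9 and 92.9 in sh-B7-H3 (1) cells (log2 fold change 2.26, standard error 0.25, limma adjusted p = 0.0006), and the 2′-5′ oligoadenylate synthetase relatives OASL2 (2.06), OAS3 (1.60) and OAS2 (1.60) followed. OAS1A (1.28), IFI44 (1.25), CMPK2 (1.17), RSAD2 (1.10) and IFIT3B (0.94) also rose. Other members of the list did not pass, among them ISG15 (0.66), IFIT1 (0.65), MX1 (0.33) and BST2 (0.97). ISG15 had 16.8, 25.8 and 29.3 scaled FPKM in sh-NC cells and 60.1, 24.6 and 35.4 in sh-B7-H3 (1) cells, and its groups overlapped. OAS2 and MX1 passed the filter through sh-B7-H3 (1) cells alone.

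Chemokines that draw T cells through CXCR3 were among the genes that rose. CXCL9 had 4.83, 2.75 and 1.60 scaled FPKM in sh-NC cells and 69.9, 36.4 and 42.5 in sh-B7-H3 (1) cells (log2 fold change 3.66, standard error 0.33, limma adjusted p = 0.00024) and CXCL10 had 5.86, 6.63 and 5.24 scaled FPKM in sh-NC cells and 57, 25 and 39.8 in sh-B7-H3 (1) cells (log2 fold change 2.52, standard error 0.27, limma adjusted p = 0.00054). The neutrophil chemokines CXCL1 (1.96) and CXCL2 (1.39), the membrane-bound CXCL16 (1.71) and CX3CL1 (1.49), CXCL11 (1.23) and CCL5 (0.65) rose as well. CCL2, a monocyte chemokine, had 22.4, 25.7 and 34.1 scaled FPKM in sh-NC cells and 18.2, 9.99 and 16.1 in sh-B7-H3 (1) cells, all sh-B7-H3 (1) libraries being lower, but it stayed just outside the threshold (log2 fold change -0.87, standard error 0.24, limma adjusted p = 0.0502). Among 13 members at 1 scaled FPKM in both groups 6 rose, against 7.20% of all such genes, and none fell. CXCL2 and CXCL11 passed the filter through sh-B7-H3 (1) cells alone. The call of CCL5 was lost in 5 or more of the 10 alternatives.

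Some checkpoint ligands and immunoregulatory enzymes rose beside the chemokines. Among 11 members at 1 scaled FPKM in both groups 5 rose, against 7.20% of all such genes, and none fell. A further 3, IDO1 among them, were at 1 scaled FPKM in sh-B7-H3 (1) cells only. IDO1, which degrades tryptophan, went from 0.194, 0.128 and 0.190 to 18.4, 7.06 and 4.64 scaled FPKM (log2 fold change 3.03). VTCN1, which encodes the B7 family member B7-H4, had 1.15, 1.90 and 1.53 scaled FPKM in sh-NC cells and 14, 11.6 and 8.49 in sh-B7-H3 (1) cells (log2 fold change 2.28, standard error 0.20, limma adjusted p = 0.0002). ARG2, an arginase, had 1.02, 2.52 and 2.83 scaled FPKM in sh-NC cells and 14.5, 12.9 and 9.96 in sh-B7-H3 (1) cells (log2 fold change 2.15, standard error 0.26, limma adjusted p = 0.0009). VTCN1 and ARG2 did not overlap between the groups, and IDO1 varied widely among the sh-B7-H3 (1) libraries, all of which were above all sh-NC libraries. CD274, which encodes PD-L1, had 4.39, 4.02 and 4.51 scaled FPKM in sh-NC cells and 25, 12.3 and 12.4 in sh-B7-H3 (1) cells, and replicate 1 was again the highest (log2 fold change 1.65). NECTIN2 (1.52), ICAM1 (1.20), TNFRSF14 (1.02) and VSIR (0.61) rose, while LGALS9 (0.33), CD47 and PVR did not pass. ICAM1 and TNFRSF14 passed the filter through sh-B7-H3 (1) cells alone.

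Other inflammatory groups moved in parts. In the IL-1 and IL-18 family, IL18R1, a receptor chain for IL-18, had 3.36, 6.38 and 4.30 scaled FPKM in sh-NC cells and 65.8, 44.4 and 32.8 in sh-B7-H3 (1) cells (log2 fold change 3.08, standard error 0.28, limma adjusted p = 0.00025), and IL1RN, the IL-1 receptor antagonist, had 2.04, 2.07 and 1.32 scaled FPKM in sh-NC cells and 20.6, 20.8 and 19.3 in sh-B7-H3 (1) cells (log2 fold change 2.93, standard error 0.15, limma adjusted p = 6.6e-05). The soluble inhibitor IL18BP (1.94) and the ligands IL1A (1.60) and IL1F9 (1.29) also rose. IL18 itself did not pass. Of complement genes, CFB, a factor of the alternative pathway, had 4.88, 6.71 and 5.92 scaled FPKM in sh-NC cells and 66.3, 33.3 and 34.2 in sh-B7-H3 (1) cells (log2 fold change 2.67, standard error 0.26, limma adjusted p = 0.00037), C1RA (0.85) rose, and C3 (0.87, limma adjusted p = 0.0745) did not pass. Where 7.20% of all genes at 1 scaled FPKM in both groups rose, 3 of 8 IL-1 and IL-18 genes and 3 of 11 complement genes did, and none fell. On FPKM as deposited these were 5 and 7. The complement count was also 7 without sh-NC replicate 1, and it was 1 without sh-NC replicate 2 or sh-B7-H3 (1) replicate 1. For CFB every sh-B7-H3 (1) library was far above every sh-NC library. IL1A and IL1F9 passed the filter through sh-B7-H3 (1) cells alone.

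Of 25 cell death genes at 1 scaled FPKM in both groups 2 rose and none fell, a share close to the 7.20% of all such genes. The necroptosis kinase RIPK3 was at 1.54, while CASP8 (0.22), GSDMD (-0.36) and MLKL (0.29) did not pass. TNFSF10, which encodes the death ligand TRAIL, had 0.372, 0.317 and 0.335 scaled FPKM in sh-NC cells and 16.4, 6.67 and 7.78 in sh-B7-H3 (1) cells (log2 fold change 2.97). Of 20 NF-κB feedback genes and targets at 1 scaled FPKM in both groups 4 rose, with a median of 0.09. Those that rose, here with the member at 1 scaled FPKM in 1 group only included, were LIF (1.12), NFKBIA (1.06), NFKBIZ (1.06), TNFAIP8 (0.99) and REL (0.51), while TNFAIP3 (0.70), RELB and SOD2 did not pass. TNFSF10 and REL passed the filter through sh-B7-H3 (1) cells alone.

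Genes that define epithelial identity rose as a further group. Among the transcription and splicing factors, ELF3 had 12.9, 11.1 and 8.54 scaled FPKM in sh-NC cells and 59.3, 67 and 59.6 in sh-B7-H3 (1) cells (log2 fold change 2.42, standard error 0.16, limma adjusted p = 7.9e-05). GRHL2, a grainyhead factor, had 0.834, 0.660 and 0.335 scaled FPKM in sh-NC cells and 5.0, 5.0 and 4.90 in sh-B7-H3 (1) cells (log2 fold change 1.90). ESRP1, which directs epithelial splicing, had 1.70, 1.91 and 1.08 scaled FPKM in sh-NC cells and 13.2, 11.2 and 10.3 in sh-B7-H3 (1) cells (log2 fold change 2.30, standard error 0.17, limma adjusted p = 0.0001). The sh-B7-H3 (1) replicates lay close together here, and their lowest value was above the highest of the sh-NC libraries in each of the 3 genes. EHF (2.36), ESRP2 (1.72), OVOL2 (1.69), GRHL1 (1.42) and FOXQ1 (0.97) rose too. Of 11 members at 1 scaled FPKM in both groups 6 rose, against 7.20% of all such genes, and none fell (median 0.97). A further 3, GRHL2 among them, were at 1 in sh-B7-H3 (1) cells only. KLF4 (0.43), KLF5 (0.57) and GATA3 did not pass. GRHL2, OVOL2 and GRHL1 passed the filter through sh-B7-H3 (1) cells alone.

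Junction and surface genes followed the same direction. CLDN7, a claudin of the tight junction, had 2.76, 3.29 and 3.42 scaled FPKM in sh-NC cells and 51.9, 29.8 and 43.2 in sh-B7-H3 (1) cells (log2 fold change 3.33, standard error 0.20, limma adjusted p = 7.1e-05), and EPCAM, an epithelial adhesion molecule, had 20.3, 27.4 and 17.2 scaled FPKM in sh-NC cells and 168, 150.4 and 126 in sh-B7-H3 (1) cells (log2 fold change 2.73, standard error 0.20, limma adjusted p = 9.8e-05). RAB25, an epithelial trafficking GTPase, had 3.84, 6.94 and 4.04 scaled FPKM in sh-NC cells and 48.2, 37.9 and 39.4 in sh-B7-H3 (1) cells (log2 fold change 2.88, standard error 0.21, limma adjusted p = 0.0001). In each of the 3 the sh-B7-H3 (1) libraries lay above all sh-NC libraries. Of 20 tight junction genes 11 rose and none fell (median 0.91), with MARVELD3 (2.41) and TJP3 (2.28) next to CLDN7, while TJP1, the scaffold ZO-1, was at -0.15. Of 27 adhesion and surface genes 19 rose and 1 fell (median 1.76). Beside both lists, 7.20% of all genes at 1 scaled FPKM in both groups rose and 4.07% fell. The adhesion and surface list was chosen with earlier results of these data known, so its count describes it and is no test. The serine protease ST14 (2.73) and its inhibitor SPINT1 (2.89), the laminin chain LAMB3 (2.71) and MUC1 (2.64) were among the highest.
NECTIN3 was the member that fell, with 16.9, 19.4 and 18.6 scaled FPKM in sh-NC cells and 6.0, 9.01 and 10.7 in sh-B7-H3 (1) cells (log2 fold change -1.04, standard error 0.19, limma adjusted p = 0.00905). CDH1, which encodes E-cadherin, had 357, 261 and 209.6 scaled FPKM in sh-NC cells and 184, 229 and 223 in sh-B7-H3 (1) cells, and its groups overlapped (log2 fold change -0.35, standard error 0.22, limma adjusted p = 0.394).

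Keratins rose in part. KRT19 had 150.3, 203 and 139 scaled FPKM in sh-NC cells and 520.1, 516 and 446 in sh-B7-H3 (1) cells (log2 fold change 1.60, standard error 0.19, limma adjusted p = 0.00088) and KRT7 had 113, 160.2 and 138 scaled FPKM in sh-NC cells and 393, 328 and 307 in sh-B7-H3 (1) cells (log2 fold change 1.33, standard error 0.18, limma adjusted p = 0.00204). All sh-B7-H3 (1) libraries were above all sh-NC libraries in both genes. KRT18 (0.91) and KRT10 (0.57) rose less, KRT14 (1.52) and KRT20 (1.76) rose from low levels, and KRT8, the partner of KRT18, was at 0.26 and did not pass. This gives 4 of 6 higher among members at 1 scaled FPKM in both groups, against 7.20% of all such genes. KRT10 and KRT20 passed the filter through sh-B7-H3 (1) cells alone. The call of KRT10 was lost in 5 or more of the 10 alternatives.

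**Figure D4:**
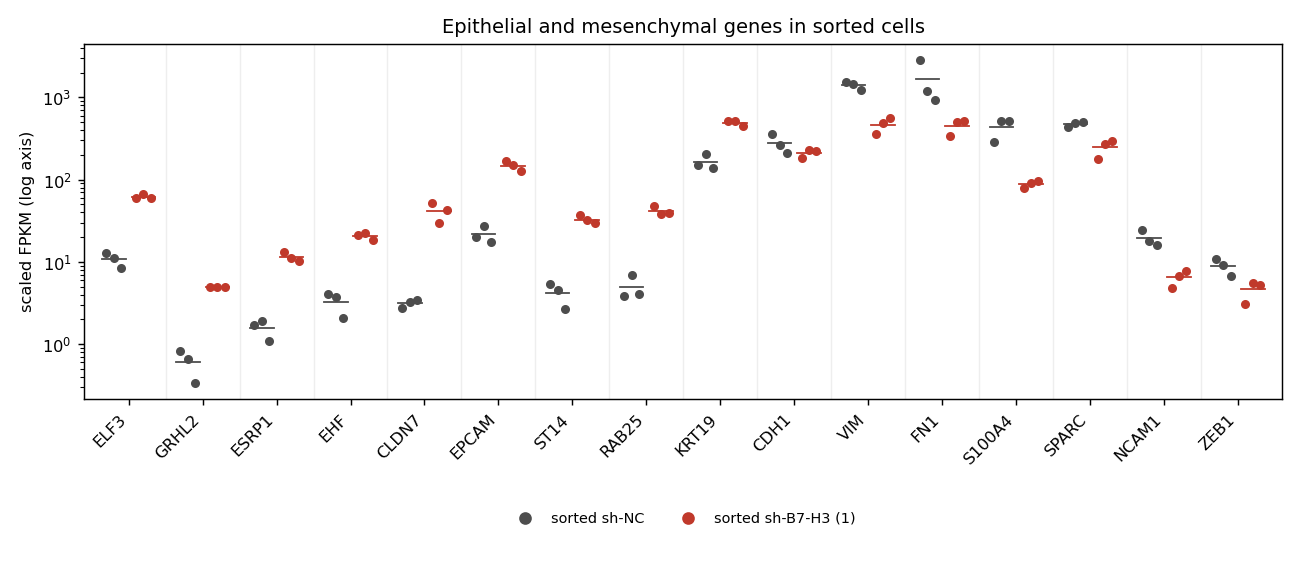
Scaled FPKM (log axis) of 10 epithelial and 6 mesenchymal genes in the 3 sorted sh-NC (grey) and 3 sorted sh-B7-H3 (1) (red) libraries, with 1 point per library and lines for group means. ELF3, GRHL2, ESRP1, EHF, CLDN7, EPCAM, ST14, RAB25 and KRT19 are higher in every sh-B7-H3 (1) library, CDH1 overlaps, and VIM, FN1, S100A4, SPARC, NCAM1 and ZEB1 are lower in every sh-B7-H3 (1) library.

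Several mesenchymal genes were lower. VIM, the intermediate filament vimentin, had 1522, 1438 and 1239 scaled FPKM in sh-NC cells and 362, 481 and 559 in sh-B7-H3 (1) cells (log2 fold change -1.60, standard error 0.22, limma adjusted p = 0.00206), and S100A4, a calcium-binding protein of motile cells, had 290.2, 517 and 515 scaled FPKM in sh-NC cells and 78.4, 92.1 and 95 in sh-B7-H3 (1) cells (log2 fold change -2.26, standard error 0.24, limma adjusted p = 0.00056). FN1, fibronectin, had 2836, 1212 and 935 scaled FPKM in sh-NC cells and 337, 502 and 513 in sh-B7-H3 (1) cells (log2 fold change -1.74, standard error 0.41, limma adjusted p = 0.0266). The groups did not overlap in these 3 genes, and sh-NC replicate 1 held far more FN1 than the other sh-NC libraries. NCAM1 (-1.45), TWIST2 (-1.05), SPARC (-0.97) and TPM1 (-0.69) fell as well. Over 19 members at 1 scaled FPKM in both groups 7 fell, against 4.07% of all such genes, and none rose, with a median of -0.69. The count that fell was 3 without sh-NC replicate 2 and without sh-B7-H3 (1) replicates 1 or 2. FBLN5, at 0.213 to 0.318 in sh-NC cells, rose by 0.94 and passed the filter through sh-B7-H3 (1) cells alone. ZEB1, a repressor of epithelial genes, was at -0.82 and just missed the threshold (limma adjusted p = 0.0546), and ZEB2 was at -0.70. The 13 fibroblast markers summed to 176 to 237 scaled FPKM in sh-NC cells and 151 to 191 in sh-B7-H3 (1) cells, and none of the 9 tested changed. The calls of FN1, SPARC and TPM1 were lost in 5 or more of the 10 alternatives.

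Renal and tubule genes moved both ways. UMOD, a secreted protein of the thick ascending limb, had 8.39, 15.1 and 3.08 scaled FPKM in sh-NC cells and 60.5, 90.2 and 56.7 in sh-B7-H3 (1) cells (log2 fold change 3.01, standard error 0.45, limma adjusted p = 0.00288), FXYD4, a regulator of the sodium pump in the collecting duct, had 4.58, 7.26 and 6.33 scaled FPKM in sh-NC cells and 58.5, 56.9 and 53.5 in sh-B7-H3 (1) cells (log2 fold change 3.04, standard error 0.16, limma adjusted p = 6.6e-05), and FXYD3 (3.08), the water channel AQP3 (1.87), SCNN1A (0.79) and ATP6V1B1 (0.75) rose. All sh-B7-H3 (1) libraries were above all sh-NC libraries for UMOD, although the sh-NC libraries differed widely among themselves. SCNN1G, another subunit of the epithelial sodium channel, fell by more than SCNN1A rose (-1.99), and CDH6 (-1.14), AQP1 (-0.98) and HSD11B2 (-0.76) were lower. Of 16 members at 1 scaled FPKM in both groups 4 rose and 3 fell, or 1 fell without sh-B7-H3 (1) replicate 1. Over all such genes 7.20% rose and 4.07% fell. The lineage factors PAX8 (-0.41) and PAX2 did not pass. Among tubule injury genes LCN2, an iron-sequestering protein of injured and inflamed epithelium, had 236, 238 and 140.3 scaled FPKM in sh-NC cells and 1973, 2081 and 1790 in sh-B7-H3 (1) cells (log2 fold change 3.28, standard error 0.24, limma adjusted p = 0.00011), PROM1 (1.53) and VCAM1 (1.12) rose, TIMP1 fell (-0.65), and 7 of 11 did not pass, among them SPP1 (-0.62) and SOX9 (0.28). AQP3 and ATP6V1B1 passed the filter through sh-B7-H3 (1) cells alone. CDH6 passed the filter through sh-NC cells alone. The calls of SCNN1A and TIMP1 were lost in 5 or more of the 10 alternatives.

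Some glycolytic genes were lower. PKM, pyruvate kinase, had 1010, 1116 and 984 scaled FPKM in sh-NC cells and 431, 489 and 503 in sh-B7-H3 (1) cells (log2 fold change -1.13, standard error 0.18, limma adjusted p = 0.00378), and SLC2A1, the glucose transporter GLUT1, had 124, 152 and 111 scaled FPKM in sh-NC cells and 53.3, 72.9 and 64.6 in sh-B7-H3 (1) cells (log2 fold change -1.01, standard error 0.18, limma adjusted p = 0.00679). Every sh-B7-H3 (1) library was below every sh-NC library for both. GPI1 (-0.84), ENO1 (-0.80), PFKP (-0.75), PGAM1 (-0.74) and PFKM (-0.61) fell too, so that 7 of 19 members were lower, against 4.07% of all genes, with a median of -0.64. This count moved widely. On FPKM as deposited, where the median of all genes is higher, 2 were lower. Without sh-NC replicate 1 it was 12, without sh-NC replicate 2 or sh-B7-H3 (1) replicate 1 it was 2, and without sh-B7-H3 (1) replicates 2 or 3 it was 4 and 3. LDHA (-0.39) and HK2 did not pass, and PFKFB3, which makes an activator of phosphofructokinase, rose (0.86). Hypoxia genes were at a median of -0.20, with NDRG1 (-0.98) and ERO1L (-0.98) lower and HIF1A at 0.21. The 55 respiratory chain genes were at a median of -0.05, and none changed. Without sh-NC replicate 1, 4 hypoxia and 3 respiratory chain genes were lower. The calls of GPI1, ENO1, PGAM1 and PFKM were lost in 5 or more of the 10 alternatives.

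Sterol and fatty acid synthesis genes fell in part, 8 of 32, against 4.07% of all genes at 1 scaled FPKM in both groups. The list median was -0.32, and on FPKM as deposited 2 fell. The count was 4 without sh-NC replicate 2 or sh-B7-H3 (1) replicate 2, 2 without sh-B7-H3 (1) replicate 1 and 3 without its replicate 3. SCD1, which desaturates fatty acids, had 257, 210 and 169.5 scaled FPKM in sh-NC cells and 93.6, 132 and 124 in sh-B7-H3 (1) cells (log2 fold change -0.85, standard error 0.21, limma adjusted p = 0.0303), and LSS (-0.73), FADS1 (-0.73), ACSS2 (-0.70), HMGCS1 (-0.67) and NSDHL (-0.50) were lower, while FASN did not pass. Antioxidant and detoxification enzymes fell in 10 of 29 cases, against the same 4.07% of all such genes, with none higher (median -0.44). On FPKM as deposited 6 fell, without sh-B7-H3 (1) replicate 1 it was 5, and without sh-NC replicate 1 it was 15. AKR1B7, an aldose reductase, had 22.3, 35.4 and 64.4 scaled FPKM in sh-NC cells and 5.58, 5.60 and 4.47 in sh-B7-H3 (1) cells (log2 fold change -2.62, standard error 0.33, limma adjusted p = 0.00125), and GSTA1 (-1.55), GSTA2 (-1.51), the cystine transporter SLC7A11 (-1.14), GCLC (-0.93), CAT (-0.92), SRXN1 (-0.84) and HMOX1 (-0.78) were lower. AKR1B7 did not overlap between the groups, although its sh-NC libraries differed widely. NQO1 (-0.70) and TXNRD1 (-0.45) did not pass. Many of these enzymes are known targets of the factor NRF2, whose own gene NFE2L2 did not pass. The calls of SCD1, FADS1, ACSS2, NSDHL and CAT were lost in 5 or more of the 10 alternatives.

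The TSC and mTOR pathway changed in a single gene. mTORC1 is active without TSC2, and these are its subunits, regulators and Rag partners. Of 37 tested members 1 changed, RRAGC, a Rag GTPase that brings mTORC1 to the lysosome, with 60.9, 65.9 and 65.1 scaled FPKM in sh-NC cells and 46.3, 44.5 and 41.7 in sh-B7-H3 (1) cells (log2 fold change -0.53, standard error 0.12, limma adjusted p = 0.0242), and the median was -0.0042. After quantile normalization 3 were lower, and without sh-NC replicate 1 it was 4. MTOR (-0.41), RHEB (0.35), RPTOR and FLCN did not pass. Lysosome genes were at a median of 0.06, with 3 of 30 higher, or 1 without sh-NC replicate 2 or any 1 of the sh-B7-H3 (1) libraries, and 1 lower, or 3 without sh-NC replicate 1. The counts of 3 and 1 are near the 7.20% higher and 4.07% lower among all genes at 1 scaled FPKM in both groups. The cathepsin CTSH rose (1.91), as did NEU1 (0.57) and GUSB (0.54), while GPNMB (-1.04) and the proton pump subunit ATP6V0D2 (-0.62), both known to respond to factors of the TFEB family, fell. ATP6V0D2 passed the filter through sh-NC cells alone. The calls of RRAGC, NEU1, GUSB and ATP6V0D2 were lost in 5 or more of the 10 alternatives.

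Growth factor pathways changed in single members. In the IGF system, IGFBP3, which binds IGFs outside the cell, had 9.17, 12.9 and 8.39 scaled FPKM in sh-NC cells and 84.8, 67.2 and 64.5 in sh-B7-H3 (1) cells (log2 fold change 2.73, standard error 0.19, limma adjusted p = 8.4e-05), and IGF1 had 36.8, 28.9 and 26 scaled FPKM in sh-NC cells and 5.81, 13.1 and 11.9 in sh-B7-H3 (1) cells (log2 fold change -1.54, standard error 0.28, limma adjusted p = 0.00802). The groups were apart in opposite directions for this ligand and its binding protein, and IGF1R was at -0.39 and did not pass. Among Wnt genes APCDD1, an inhibitor of Wnt signaling, had 28.9, 21.2 and 22.5 scaled FPKM in sh-NC cells and 3.23, 5.76 and 5.88 in sh-B7-H3 (1) cells (log2 fold change -2.10, standard error 0.22, limma adjusted p = 0.00045), CTNNB1, β-catenin, fell by less (-0.72), FZD6 fell (-0.53), and WNT7A (1.89), WNT4 (1.01), WNT7B (0.84) and FZD7 (0.67) rose. In the TGF-β list ID3 (1.63), BMP7 (1.13), LTBP2 (0.76), INHBB (0.63) and TGIF1 (0.60) rose, and the receptor TGFBR2 (-0.93), LTBP1 (-0.91), BMP4 (-0.80) and CTGF (-0.74) fell. Among members at 1 scaled FPKM in both groups, 1 rose and 1 fell of 13 in the IGF list, 3 rose and 3 fell of 19 in the Wnt list, and 3 rose and 4 fell of 24 in the TGF-β list. The shares over all such genes were 7.20% higher and 4.07% lower. Without sh-NC replicate 2, 1 rose and 1 fell in the Wnt list and 1 rose and 2 fell in the TGF-β list. Without sh-B7-H3 (1) replicates 1, 2 or 3, 1 Wnt gene fell each time, 1 TGF-β gene rose each time, and 1, 1 and 2 TGF-β genes fell. Without its replicate 3, 1 Wnt gene rose. WNT4, ID3 and LTBP2 passed the filter through sh-B7-H3 (1) cells alone. The calls of CTNNB1, FZD6, INHBB, TGIF1, LTBP1 and CTGF were lost in 5 or more of the 10 alternatives.

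Proliferation genes changed in single members and some stress genes rose. Of 40 cell cycle and replication genes MCM7 rose (0.49) and CCNB2 fell (-0.61), with MKI67 at -0.21 and a list median of 0.05. Among all genes at 1 scaled FPKM in both groups 7.20% rose and 4.07% fell. Without sh-NC replicate 1, 3 of the cell cycle and replication genes rose. Of 29 immediate-early and heat shock genes 5 rose and none fell (17.2%, against 7.20% of all such genes that rose), namely NR4A1 (1.64), FOSB (1.28), ATF3 (1.08), EGR2 (1.02) and DUSP6 (0.58), while FOS, at 0.58, did not pass. The count was 8 on FPKM as deposited and without sh-NC replicate 1, 3 without sh-NC replicate 2 or sh-B7-H3 (1) replicate 1 and 2 without sh-B7-H3 (1) replicate 3. Of 19 unfolded protein response genes 1 changed, CHAC1, which fell (-0.75). The calls of MCM7, CCNB2 and DUSP6 were lost in 5 or more of the 10 alternatives.

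Markers of several other host cells were low in all 6 libraries. The 12 endothelial markers summed to 0.846 to 1.42 scaled FPKM in sh-NC cells and 1.55 to 1.61 in sh-B7-H3 (1) cells, each marker staying under 1. The 6 B cell markers summed to at most 1.00, the 13 neutrophil and mast cell markers to 0.478 to 1.74 and 1.73 to 3.10, and the 4 Y-linked genes of the male host to 0.277 to 0.469 and 0.404 to 0.887. Of the neutrophil and mast cell list KIT was tested and rose from at most 0.371 to 1.31 to 2.46 scaled FPKM (log2 fold change 1.17). KIT passed the filter through sh-B7-H3 (1) cells alone. Markers of erythroid cells and muscle were not low. They summed to 49.9 to 96.3 in sh-NC and 28.8 to 76.7 in sh-B7-H3 (1) cells, which overlaps the 72.8 to 273 of bulk sh-NC tumors, and none of 6 tested changed. The T cell, macrophage and endothelial sums did not overlap between the groups (p = 0.1 in two-sided exact permutation tests, their lower limit here), while p was 0.2 for leukocytes, for neutrophils and mast cells and for Y-linked genes, 0.4 for erythroid cells and muscle, 0.5 for fibroblasts and 0.8 for B cells. The part of these cells in the gene changes was not tested.

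Beyond the lists, the largest rises include UBD, the ubiquitin-like modifier FAT10, which had 0.655, 0.628 and 0.487 scaled FPKM in sh-NC cells and 79.7, 33.8 and 24.5 in sh-B7-H3 (1) cells (log2 fold change 4.71), and GM12250, an interferon-inducible GTPase gene, which had 0.848, 0.368 and 0.757 scaled FPKM in sh-NC cells and 46.1, 16 and 21.2 in sh-B7-H3 (1) cells (log2 fold change 3.99). SERPINA1E, an α1-antitrypsin gene, had 1.33, 1.48 and 0.735 scaled FPKM in sh-NC cells and 28.7, 34 and 39.1 in sh-B7-H3 (1) cells (log2 fold change 4.01, standard error 0.18, limma adjusted p = 6.6e-05). KHDC1A and KHDC1C, neighboring genes named for a KH domain, had 10.4, 23.3 and 16.8 scaled FPKM in sh-NC cells and 273, 242 and 253 in sh-B7-H3 (1) cells and 8.34, 14.6 and 11.5 scaled FPKM in sh-NC cells and 188, 162 and 186 in sh-B7-H3 (1) cells (log2 fold changes 3.91 and 3.88). These 5 genes were picked from those whose groups did not overlap, 31.1% of all tested. The 2 KHDC1 genes varied little among sh-B7-H3 (1) libraries. SERPINA1E and the KHDC1 genes have close paralogs that may share reads. UBD and GM12250 passed the filter through sh-B7-H3 (1) cells alone.
Short RNA entries stood at the extremes but were erratic. MIR762 was at 0 in all sh-NC libraries and at 565, 441 and 383 in sh-B7-H3 (1) cells, and at 0, 628 and 0 in sorted sh-B7-H3 (2) cells. SNORA41 was at 0 in sh-NC cells and at 18.4, 14.3 and 12.4, and MIR6240 had 10.6, 236 and 11.2 in sh-NC cells and 0 in all sh-B7-H3 (1) libraries. The ratio of MIR762 to SNORA41 was 30.7 in each of the 3 sh-B7-H3 (1) libraries. No fold change is given for entries at 0 in a whole group, and read numbers are not in the tables.

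The largest falls outside the lists were of smaller size. TNFRSF9, the costimulatory receptor 4-1BB, had 26.7, 52.5 and 49 scaled FPKM in sh-NC cells and 11.7, 8.15 and 7.71 in sh-B7-H3 (1) cells (log2 fold change -2.06, standard error 0.27, limma adjusted p = 0.00146), MGLL, a lipase for monoacylglycerols, had 10.6, 12.1 and 14.6 scaled FPKM in sh-NC cells and 1.96, 2.34 and 2.33 in sh-B7-H3 (1) cells (log2 fold change -2.06, standard error 0.15, limma adjusted p = 9.8e-05), and MME, the membrane peptidase neprilysin, had 9.79, 13.5 and 12.6 scaled FPKM in sh-NC cells and 1.48, 2.13 and 3.12 in sh-B7-H3 (1) cells (log2 fold change -2.02, standard error 0.21, limma adjusted p = 0.00045). The genes of this paragraph were picked from those whose groups did not overlap, so all sh-B7-H3 (1) libraries lie below all sh-NC libraries. TSPAN15 (-2.08), NNMT (-2.01), SCG5 (-1.96), DPYSL3 (-1.88), ALDH1L2 (-1.81) and GPR141 (-1.78) fell by similar amounts. PRL2C2 fell by -1.91 with sh-NC libraries at 4.74, 2.91 and 11 and sh-B7-H3 (1) libraries at 2.21, 0.0645 and 0.483, so that replicate 1 of the latter was close to the lowest sh-NC library. The call of PRL2C2 was lost in 5 or more of the 10 alternatives.

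The cells with the separate shRNA were compared next, which asks whether the changes were particular to this hairpin. CD276, the target, was at 23.3, 25.4 and 25.7 scaled FPKM in these cells, with a mean of 24.83 against 23.75 in sh-NC cells. It did not pass the threshold against sh-NC cells (log2 fold change 0.12, limma adjusted p = 0.775). Against the sorted sh-B7-H3 (2) libraries, 382 of 11239 genes differed (3.40%), 198 higher and 184 lower in sh-B7-H3 (1) cells. Replicate 1 of the sh-B7-H3 (2) libraries stood apart with leukocyte markers at 216 scaled FPKM, against 4.55 to 8.19 in the other 5 libraries, and without it 890 genes differed. Without its replicates 2 or 3 the counts were 68 and 35, and without sh-B7-H3 (1) replicates 1, 2 or 3 they were 203, 83 and 55. A replicate block gave 1864, and whether replicate numbers pair the shRNAs was not tested. CD276 was lower in sh-B7-H3 (1) cells than in sh-B7-H3 (2) cells (log2 difference -1.16, standard error 0.20, limma adjusted p = 0.0277), a call that was lost in 5 of 11 alternatives. Against the same sh-NC libraries, the fold changes of the 2 shRNAs stood side by side at 6.80 and 6.88 for CD74, 2.83 and 2.91 for IRF1, 3.16 and 3.45 for GBP2, 2.73 and 3.07 for EPCAM and -1.60 and -1.91 for VIM. None of these 5 genes passed the threshold in the direct comparison of the shRNAs.

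Other genes did differ between the shRNAs. KHDC1A and KHDC1C were higher with sh-B7-H3 (1), KHDC1A being at 64.3, 30.0 and 29.4 with sh-B7-H3 (2) (log2 difference 2.70, limma adjusted p = 0.00503). AP1M2, a subunit of the epithelial clathrin adaptor, had 0.231, 0.219 and 0.772 scaled FPKM in sh-NC cells and 9.74, 6.66 and 7.37 in sh-B7-H3 (1) cells but only 0.476, 0.607 and 1.09 with sh-B7-H3 (2) (log2 difference 2.37, limma adjusted p = 0.00163). RPS27, a ribosomal protein gene with many near-identical copies, was at 837, 1304 and 1190 with sh-B7-H3 (1) and 2.66, 52.3 and 2.51 with sh-B7-H3 (2), while sh-NC cells had 804, 1514 and 1510. In the other direction ESRP1 (-0.53) and RIPK3 (-0.59), both higher than in sh-NC cells with either shRNA, were lower with sh-B7-H3 (1) than with sh-B7-H3 (2), with limma adjusted p = 0.0496 and 0.0461. HAVCR1, the tubule injury marker KIM-1, was at most 0.0295 with sh-B7-H3 (1) and at 17.2, 78.8 and 75.1 with sh-B7-H3 (2) (log2 difference -5.56). It passed the filter through sh-B7-H3 (2) cells alone. IL2RG (-3.38), MMP7 (-3.14) and MME (-2.91) were lower with sh-B7-H3 (1), and for MME the sh-B7-H3 (2) libraries had 6.67, 42.8 and 39.2, replicates 2 and 3 exceeding every sh-NC library. CCL2 (-1.76) and CDH6 (-2.75) also differed, standing below the sh-NC libraries with sh-B7-H3 (1) and above them with sh-B7-H3 (2). CDH6, like HAVCR1, passed the filter of this comparison through sh-B7-H3 (2) cells alone. IL2RG, HAVCR1 and CDH6 were each tested in 8 alternatives and not in 11. The calls of MME and CDH6 between the shRNAs were lost in 7 of 11 and 5 of 8 alternatives, those of ESRP1 and RIPK3 in 8 and 7 of 11, and those of KHDC1A, KHDC1C, AP1M2 and MMP7 in none of 11.

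In bulk tumors of the same shRNA the rises of several MHC class II genes were smaller. Between bulk sh-B7-H3 (1) and bulk sh-NC tumors 2520 of 11800 tested genes changed (limma), 1515 of them higher and 1005 lower. Bulk samples mix tumor and host cells, and in them fewer cells of a type and less RNA per cell cannot be told apart. The effect of sh-B7-H3 (1) differed between sorted cells and bulk tumors past the threshold in 56 of 12062 genes (0.464%), 30 with a higher and 26 with a lower sorted effect. The largest positive differences were those of CD74 (4.67, standard error 0.71, limma adjusted p = 0.0192), H2-AA (4.64), H2-AB1 (4.05) and H2-EB1 (3.90). CD74 had 152, 336 and 246 in bulk sh-NC tumors and 1470, 1552 and 471 in bulk sh-B7-H3 (1) tumors, a log2 fold change of 2.14, and every bulk sh-NC tumor held far more CD74 than any sorted sh-NC library. For IRF1 the log2 fold changes were 2.83 in sorted cells and 1.38 in bulk tumors, and for EPCAM 2.73 and 2.65, and neither difference passed the threshold.
The largest negative differences were those of C1QTNF3 (-2.31), THBS2 (-2.27), CTHRC1 (-2.17) and CDH11 (-2.16), genes of fibroblasts and matrix. CDH11 had 0.825, 1.80 and 1.19 in bulk sh-NC tumors and 12.5, 7.49 and 6.42 in bulk sh-B7-H3 (1) tumors, but at most 0.417 scaled FPKM in the 6 sorted libraries.

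**Figure D5:**
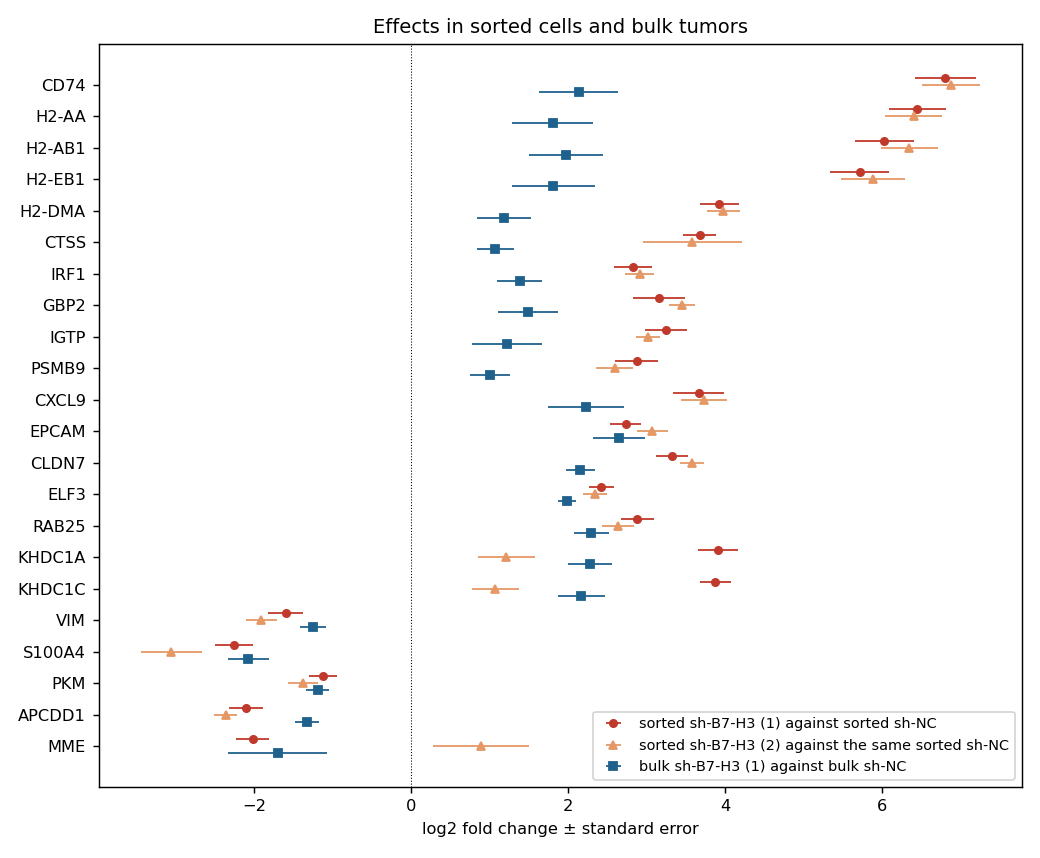
Log2 fold changes with standard errors for 22 genes (rows) in sorted sh-B7-H3 (1) against sorted sh-NC cells (red), sorted sh-B7-H3 (2) against the same sh-NC libraries (orange) and bulk sh-B7-H3 (1) against bulk sh-NC tumors (blue). The MHC class II and interferon genes lie further right in sorted cells than in bulk tumors, EPCAM lies close in all 3, and KHDC1A, KHDC1C and MME differ between the shRNAs.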

How the data were processed

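Gene expression was measured by RNA-seq in 15 libraries, 6 of them in the main comparison. The authors aligned reads to mm10 with the VIPER pipeline and deposited FPKM for 24917 entries, and a second deposited table of 1000 genes, 999 of them matched by name, holds log2(FPKM + 1) of the same values. Aligner and annotation versions are not given in the sources used here, and library kits differ between the labels and the methods. Of the entries, 26 had names turned into dates and were dropped, leaving 24891. Read numbers are unknown, so no counting error could be computed. FPKM were divided by median-ratio scaling factors over 9872 genes at 1 FPKM or more in all 15 libraries, because 1 small RNA entry takes a large part of some totals. Log2(scaled FPKM + 1) values of genes that reached 1 scaled FPKM in 3 or more of the compared libraries entered limma 3.58.1 (R 4.3.3, trend = TRUE), and genes with Benjamini-Hochberg adjusted p below 0.05 were called changed. The fit was tested on simulated data. Single sums were compared by exact two-sided permutation tests (numpy 2.4.6), with tables by pandas 2.3.3 and plots by matplotlib 3.10.9.

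Samples were grouped by their labels. The comparisons were sorted sh-B7-H3 (1) against sorted sh-NC cells, sorted sh-B7-H3 (1) against sorted sh-B7-H3 (2) cells, and the difference between the sorted and bulk effects of sh-B7-H3 (1). The sh-B7-H3 (2) fold changes share the sh-NC libraries and are given side by side only. Alternatives were other scalings, filters and pseudocounts, fits with more libraries, a replicate block and the removal of each library. Genes are named if among the 15 largest or smallest changes with no overlap of the groups, among the 4 largest per direction of a gene list, among the 4 largest or smallest of the other comparisons, or if their role is described, and some genes within this rule are not reported here. AP1M2, CCL2 and CDH6 were named in the comparison of the shRNAs, and the ratio of the short entries was computed, after their values were seen. The comparison and the gene lists were chosen with earlier results of these data known. Promoter sequences are from RefSeq (GRCm38.p6).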

Additional observations from a re-analysis of the deposited data

Results flagged for a closer look

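The effect of sh-B7-H3 (1) differed between sorted cells and bulk tumors, by a test of the difference itself (limma on 12 libraries, adjusted p given), in 16 of the genes named above. Over 16 alternatives the call of H2-EB1 was lost in 14, that of THBS2 in 13, that of CTHRC1 in 12, those of C1QTNF3 and H2-AB1 in 9, that of CD74 in 6, that of H2-AA in 4 and that of CDH11 in none. The differences, sorted minus bulk effect on the log2 scale, were 4.67 for the invariant chain CD74 (adjusted p = 0.0192). They were 4.64 (0.0192) and 4.05 (0.0326) for the I-A chains H2-AA and H2-AB1, 3.90 (0.0451) for the I-E chain H2-EB1, 2.75 (0.0344) and 2.44 (0.0423) for the peptide editors H2-DMA and H2-DMB2, and 2.61 (0.00854) for the protease CTSS. All 7 belong to the MHC class II pathway. In bulk tumors 5 of them rose, by 1.01 (H2-DMB2) to 2.14 (CD74), while H2-EB1 (1.81, limma adjusted p = 0.0516) and H2-DMA (1.18, 0.0510) did not pass. Macrophage and dendritic cell markers, from cells that carry class II, summed to 943 to 1598 scaled FPKM in bulk sh-NC tumors and 64.4 to 69.5 in sorted sh-NC cells, and their part in the difference was not tested.

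AP1M2 (2.42, adjusted p = 0.00854), IGFBP3 (2.19, 0.00854), IL1RN (1.97, 0.00854) and NECTIN2 (0.79, 0.0423) also had a larger effect in sorted cells (limma). AP1M2 passed the filter of the sorted comparison through sh-B7-H3 (1) cells alone. In bulk tumors it was below the filter and not tested by itself. FOSB rose in sorted cells and had a log2 fold change of -0.97 in bulk tumors, a difference of 2.25 (limma adjusted p = 0.0102). C1QTNF3 (-2.31, adjusted p = 0.0326), THBS2 (-2.27, 0.0440), CTHRC1 (-2.17, 0.0451) and CDH11 (-2.16, 0.0102) were higher in bulk sh-B7-H3 (1) tumors than in bulk sh-NC tumors (limma). The first 3 did not pass in sorted cells, where CDH11 was below the filter and not tested by itself. The 13 fibroblast markers summed to 233 to 350 scaled FPKM in bulk sh-NC tumors and to 487 to 967 in bulk sh-B7-H3 (1) tumors, and their part was not tested.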

How the results depend on the processing

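The count of 1497 genes changed in sorted sh-B7-H3 (1) cells lay between 1042 and 2146 under other scalings, filters, a pseudocount of 0.1 and fits of 9 or 15 libraries. A fold limit of 1 on the log2 scale left 716, and leaving out single libraries gave 722 to 1948. Genes tested there numbered 10850 to 11054, since those at 1 scaled FPKM in 1 group only then miss the filter. Of 195 named changed genes, 167 were tested in all 10 alternatives, and 106 of those stayed past the threshold in the same direction in each. The other 28 missed the filter in at least 1 alternative. The call was lost by 55 genes with a replicate block, 50 without sh-B7-H3 (1) replicate 1 and 46 without sh-NC replicate 2. List genes changed numbered 241 (147 to 290 with single libraries left out), and marker genes 4 (7 on FPKM as deposited, 3 to 7 with single libraries left out). CD276 passed the threshold on FPKM as deposited (-0.86), after quantile normalization (-1.09) and in the fits of 9 and 15 libraries (-1.04), with -1.23 to -0.76 when single libraries were left out. The comparison of the shRNAs gave 137 genes without a filter, 70 with sh-B7-H3 (2) replicates 2 and 3 averaged as 1 library, an alternative chosen after seeing the data, and 35 to 890 with single libraries left out. The difference between sorted and bulk effects gave 128 genes on FPKM as deposited, 25 with a pseudocount of 0.1 and 12 to 72 with single libraries left out. Each sorted library left out brought it to 23 or fewer, and bulk sh-NC replicates 1, 2 or 3 left out to 22, 32 and 12. TJP1 turned to 0.039 on FPKM as deposited and lay between -0.39 and 0.10 with single libraries left out, and MKI67 between -0.61 and 0.18, none past the threshold.

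Same-numbered sorted sh-NC and sh-B7-H3 (1) libraries did not deviate together from their group means, with correlations of -0.54, 0.06 and -0.10. Whether replicate numbers pair the libraries of the other groups was not tested. A replicate block gave 915 changed genes, 1864 between the shRNAs and 24 for the sorted and bulk difference. With it 5 class I heavy chains, 15 type I interferon, 3 interferon signaling and 2 immediate-early genes were higher, and 4 glycolytic, 4 mesenchymal and 3 sterol genes lower. Read depth is not in the tables, which limits what can be said of genes near 1 scaled FPKM.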
